A study of Homo sapiens with 12 samples.

Results

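The genes described here encode proteins grouped as inhibitors of WNT signalling. They are the secreted frizzled-related proteins SFRP1, SFRP2, FRZB and SFRP5 and the Dickkopf proteins DKK1, DKK2 and DKK3. The Shisa proteins SHISA2 and SHISA3 and the Cerberus protein CER1 belong to them as well. These 10 genes were chosen by name, among 58219 genes measured. Of them 8 reached 1 TPM (a level corrected for transcript length, as a share of all transcripts in a library) in at least 2 libraries and were tested, among 24248 genes tested in all. DKK2 and CER1 did not reach that level and are given by their values. Poly(A) RNA was sequenced from H9, a human embryonic stem cell line in wide use, at day 0 and at days 4 and 8 of neural differentiation. Wild-type cells (libraries WT1 and WT2) and cells labelled SOX21-/- (libraries S13 and S23) were compared at each day, in 6 groups of 2 libraries. SOX21 encodes a transcription factor made in neural progenitors, and the study asked what it does in early neural differentiation. The sources used here do not say how the SOX21 gene was altered or whether paired libraries are separate clones or cultures. With 2 libraries per group, p-values speak to the scatter among these libraries alone, which may be technical.

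WNT proteins bind a frizzled receptor together with a co-receptor, LRP5 or LRP6, and this stops the breakdown of beta-catenin, which then acts with TCF/LEF factors on target genes. SFRP proteins, including FRZB, carry a frizzled-like domain and bind WNT outside the cell, while DKK1 and DKK2 bind the LRP co-receptors. Shisa proteins hold frizzled and FGF receptors back in the endoplasmic reticulum. Cerberus proteins bind NODAL and BMP, and in some species WNT ligands. In the early embryo such antagonists shield the anterior neural plate from the WNT signals that specify more posterior brain.

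Upstream sequence from RefSeq (GRCh38.p14) was matched to 7 of the 10 genes and is shown for those on which the results turn. None was matched to SFRP1, DKK2 or DKK3, so their promoters were not searched. Each window of 250 bases ends at the base before the RefSeq start, and positions are counted back from that start. In GENCODE v29, which starts some of these genes elsewhere, the whole FRZB window lies in the first exon of FRZB and 37 bases of the SFRP2 window lie in that of SFRP2. The whole DKK1 window lies in an exon of PRKG1-AS1, a gene on the opposite strand. The letters searched, on both strands, were CTTTGA (the core of TCF/LEF sites), ACAAT (a core bound by SOX factors) and CCAAT (the CCAAT box). Of 35116 RefSeq promoters of the same length, 11.2%, 24.6% and 32% hold them. They were found in 1, 3 and 3 of the 7 promoters, and no match overlapped another. The 3 with a CCAAT box are those of SFRP2, FRZB and SFRP5, and each holds it in reverse as ATTGG. Whether SFRP1 holds it is not known here. It is shown in capitals with 12 bases on either side, for SFRP2 at chr4:153789135-153789163, FRZB at chr2:182866689-182866717 and SFRP5 at chr10:97772043-97772071, all on the minus strand. The box lies at -68 to -64 in SFRP2 and in FRZB and at -60 to -56 in SFRP5, and these genes did not share 1 time course, as given further on.
SFRP2: ggattacccttcATTGGctcctcccttgc
FRZB: tcgtgggaccccATTGGgggaatttgatc
SFRP5: aggcggccggagATTGGctggggcgcacg

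Of the 7 promoters searched, that of DKK1 was the one with TCF/LEF letters, at -149 to -144 and at -95 to -90. They are shown in capitals (chr10:52314031-52314280, plus strand). DKK1 is itself known as a target of WNT signalling. The SHISA2 promoter (chr13:26052017-26052266, minus strand) holds the SOX letters, in reverse as ATTGT, at -239 to -235. SHISA3 and CER1 each held them also. These matches are descriptions of the windows and not evidence that a factor binds there.
DKK1: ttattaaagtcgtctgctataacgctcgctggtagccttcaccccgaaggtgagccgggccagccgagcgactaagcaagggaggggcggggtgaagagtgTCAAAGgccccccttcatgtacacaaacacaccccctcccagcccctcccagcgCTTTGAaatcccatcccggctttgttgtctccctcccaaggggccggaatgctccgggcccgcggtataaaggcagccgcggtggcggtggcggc
SHISA2: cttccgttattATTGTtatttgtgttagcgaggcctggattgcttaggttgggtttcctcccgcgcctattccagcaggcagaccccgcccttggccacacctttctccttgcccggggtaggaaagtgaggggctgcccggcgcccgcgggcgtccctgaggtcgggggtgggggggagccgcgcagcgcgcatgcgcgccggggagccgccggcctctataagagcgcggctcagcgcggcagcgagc

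No difference of the SOX21 transcript itself passed: its level was 100.04 to 166 TPM in wild type and 69.9 to 253 TPM in S13 and S23 at days 4 and 8, at no day below the threshold (limma adjusted p = 0.898 to 1). A gene-level value cannot show an alteration that leaves the RNA in place, so the genotype is taken from the labels, and every direction is between libraries so labelled. Day 0 libraries stood apart in makeup, since the share of TPM in nuclear protein-coding genes was 55.9% to 56.4% there and 83.5% to 87.1% later. The summed level of 6 pluripotency markers was 2510 to 2684 TPM at day 0 and 707 to 1086 TPM later, most of the latter being LIN28A, which rose to day 4. Without LIN28A the sum was 2334 to 2516 TPM at day 0 and 98.5 to 175 TPM later. That of 8 neural progenitor markers was 104 to 109 TPM and then 1014 to 2066 TPM. The labelled cell types thus carried their defining markers. All RNA is from bulk culture, in which fewer cells of a type and less RNA per cell cannot be told apart.

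In the deposited TPM, SFRP1, SFRP2, FRZB and SHISA2 rose between day 0 and day 4 in both genotypes. Scaled by the median of gene ratios, the SFRP2 log2 fold change under the SOX21-/- label was 0.14 and did not pass (limma adjusted p = 0.233). Few differences of the antagonists between the labelled genotypes passed the test. In wild type 6 of the 8 tested genes changed from day 0 to day 4, 4 upward and 2 downward, where 65.7% of all genes tested passed. In the libraries labelled SOX21-/- 7 of 8 changed, 5 upward and 2 downward, where 60.6% of all genes passed. SFRP5 and SHISA3, the 2 downward in each, and DKK1, the additional one upward, reached 1 TPM only in the group where they were high and so had to differ. FRZB, among those upward, reached 1 TPM in 1 library of day 0 and so entered the test through the later days, where it was high. These counts, near the share of all genes, therefore say nothing particular of the antagonists, and the same holds for their median. The median log2 fold change of the 8 genes was 1.18 in wild type and 1.86 under the SOX21-/- label, beside 0.91 and 0.72 over all genes tested. From day 4 to day 8 in wild type 3 of 8 fell and 0 rose, where 12.6% of all genes passed. Under the SOX21-/- label 2 rose and 1 fell over that step, where 26.1% passed. Both day 0 comparisons share their day 4 libraries with the later ones, so these counts are not independent.

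**Figure D1:**
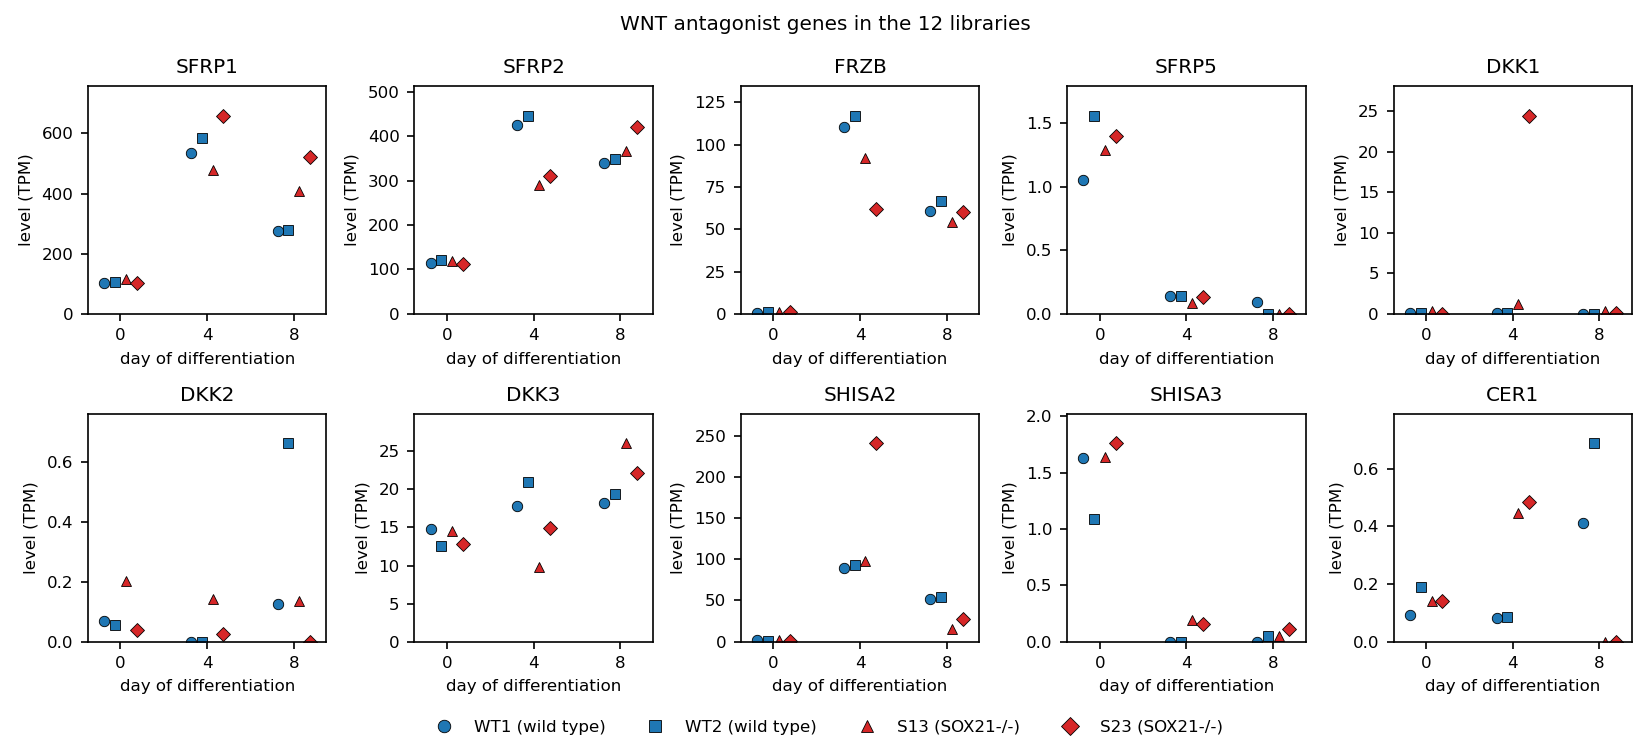
Level of each WNT antagonist gene (TPM, vertical axis, own scale per gene) by day of differentiation, with 1 point per library and marker shape and colour for WT1, WT2, S13 and S23. SFRP1, SFRP2, FRZB and SHISA2 are far above their day 0 level at day 4, SFRP5 and SHISA3 are highest at day 0, and DKK1 stands out in the S23 library at day 4.

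At day 0 no difference of the 8 genes between the labelled genotypes passed by limma (0 of 8 passed, 0 of 8 at an unadjusted p under 0.05 beside 5.88% of all genes, and 0.384% of all genes passed). At day 4 SFRP2 was lower in S13 and S23 and the other 7 did not pass, where 0.775% of all genes passed. At an unadjusted p under 0.05 there were 4 of 8 (SFRP2, FRZB, DKK1 and DKK3), beside 16.9% of all genes. DKK1 reached 1 TPM in S13 and S23 at day 4 alone, so it entered this comparison through the group where it was high. At day 8 limma called 0 of 8, with 3 of 8 (SFRP1, SFRP2 and SHISA2) at an unadjusted p under 0.05, where 2.79% of all genes passed and 16.3% had such an unadjusted p. The medians of the 8 genes at the 3 days were 0.081, -0.018 and 0.13 on the log2 scale, beside 0, -0.12 and 0 over all genes tested. Whether the genotype difference itself changed between days was tested too. From day 4 to day 8 it changed for 1 of 8, SFRP2, where 1.11% of all genes passed. An unadjusted p under 0.05 was found there for 4 of 8 (SFRP1, SFRP2, DKK3 and SHISA2), beside 16.4% of all genes. From day 0 to day 4 limma called 0 of 8 and 0.408% of all genes. At an unadjusted p under 0.05 there were 3 of 8, beside 12% of all genes. From day 0 to day 8 limma also called 0 of 8 and 0.94% of all genes, with 2 of 8 at an unadjusted p under 0.05, beside 11.2% of all genes.

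**Figure D2:**
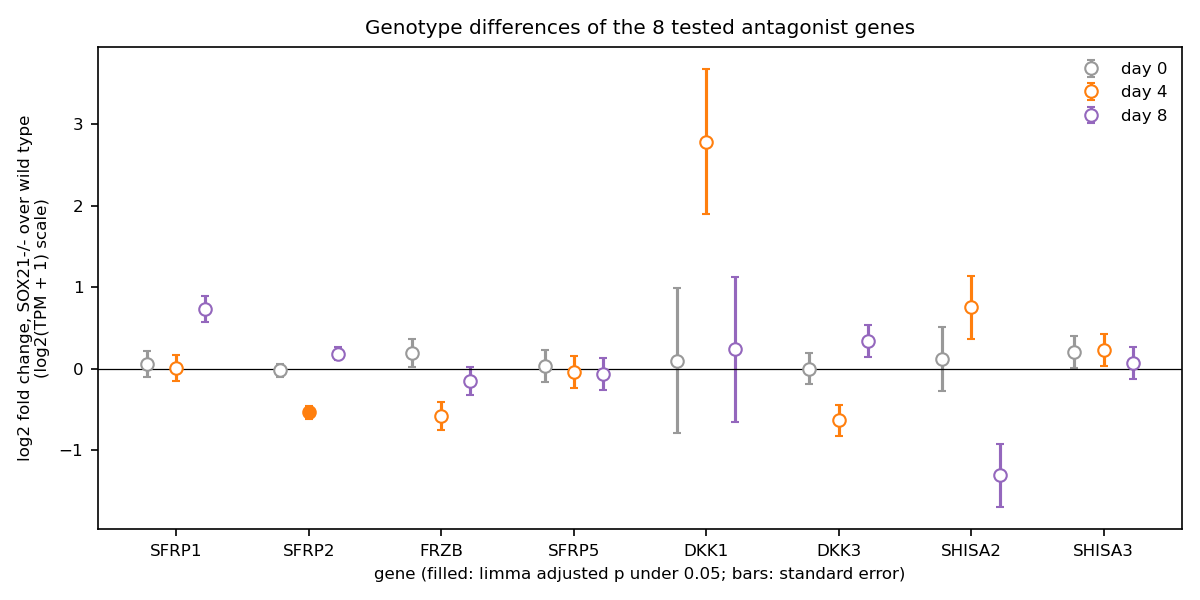
Log2 fold change of the libraries labelled SOX21-/- over wild type on the log2(TPM + 1) scale (vertical axis) for each tested antagonist gene, with 1 point per day, standard error bars and filled points for an adjusted p under 0.05. The filled point is SFRP2 at day 4, at -0.53, while DKK1 at day 4 has the widest error bars.

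The SFRP group held most of the antagonist RNA. SFRP1 and SFRP2 together made up 73.9% to 92.8% of the summed level of the 10 genes in every library. That sum was 234 to 255 TPM at day 0. At day 4 it was 1176 and 1262 TPM in wild type and 970 and 1313 TPM (S13, S23), and at day 8 it was 745 and 771 TPM against 873 and 1049.9 TPM. The groups overlapped at day 4 and did not at day 8, when both libraries labelled SOX21-/- were above wild type. Among the nuclear protein-coding genes above 0 TPM in a library, SFRP1 stood at the 94.7 to 99.1 percentile of level and SFRP2 at the 95.2 to 98.6 percentile.

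**Figure D3:**
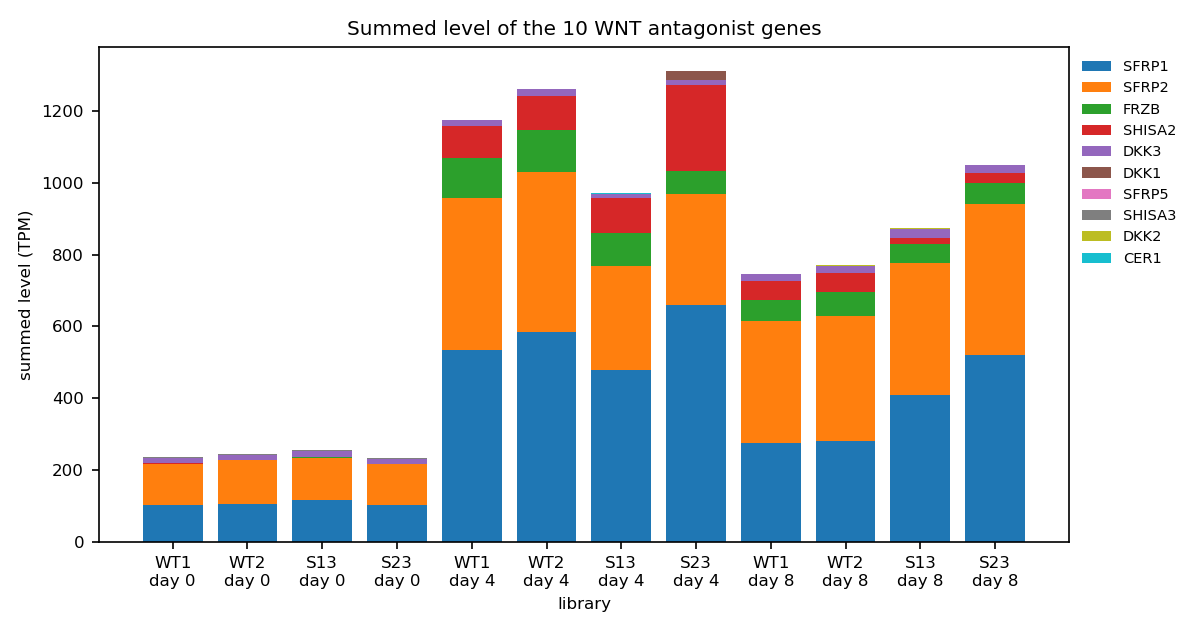
Summed level of the 10 WNT antagonist genes (TPM, stacked bars from 0) in each of the 12 libraries, with 1 colour per gene. SFRP1 and SFRP2 fill most of every bar, FRZB and SHISA2 are visible at days 4 and 8, and the sum runs from 234 TPM at day 0 to 1313 TPM in S23 at day 4.

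SFRP1, a WNT-binding antagonist widely expressed in neural progenitors (ENSG00000104332.11), was at 102 and 106 TPM (WT1, WT2) at day 0 and at 115 and 103 TPM (S13, S23). By day 4 it was at 533 and 585 TPM (WT1, WT2) and 478 and 659 TPM (S13, S23). The genotypes overlapped at both days, and the S13 and S23 libraries lay on either side of wild type at day 4. The rise from day 0 to day 4 passed in both, with log2 fold changes of 2.41 in wild type (SE 0.16, limma adjusted p = 2.91e-06) and 2.35 under the SOX21-/- label (SE 0.16, adjusted p = 3.77e-06). Scaled by the median of gene ratios these were 0.98 and 1.12 (adjusted p = 0.00103 and 0.000481). At day 8 SFRP1 was at 274 and 280 TPM (WT1, WT2) and 409 and 520 TPM (S13, S23). Both wild-type libraries had thus fallen below every day 4 library, and S13 and S23 lay well above them without overlap.

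The step from day 4 to day 8 passed in wild type, where SFRP1 fell (log2 fold change -1.01, SE 0.16, limma adjusted p = 0.00663) and did not under the SOX21-/- label (-0.28, SE 0.16, adjusted p = 0.239). Without WT2 at day 4 the wild-type step just missed the threshold (-0.94, adjusted p = 0.0507), and scaled by the median of gene ratios the step under the SOX21-/- label passed (-0.52, adjusted p = 0.0490). The difference between the labelled genotypes at day 8 was 0.73 (SE 0.16, 95% interval 0.37 to 1.10) and missed the threshold at an adjusted p of 0.0528. It passed without S13 or S23 at day 4 (adjusted p = 0.0243 and 0.0244). The change between the steps was also 0.73 and did not pass (SE 0.22, adjusted p = 0.161). At day 8 the summed level of 7 mesenchyme markers, of which 4 were tested and 0 called, was 32.4 and 32.7 TPM in S23 and S13 against 17.8 TPM in each wild-type library. Most of it was COL1A1 and COL1A2, while LUM went the other way, at 5.10 and 6.24 TPM (WT1, WT2) and 2.53 and 0.297 TPM (S13, S23). The stem cells of day 0 had a sum of 31.1 to 39.6 TPM, so the sum does not mark mesenchyme alone. Its part in the SFRP1 level was not tested.

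Several small genes lie within SFRP1 (GENCODE v29). One of them, MIR548AO, sits in an intron on the same strand and was listed at 0 in both wild-type libraries at day 4 and at 10.1 and 10.7 TPM (S13, S23), and the test passed (limma adjusted p = 0.0493). The difference of SFRP1 itself did not pass at that day (log2 fold change 0.0058, SE 0.16, adjusted p = 1). Reads of an intronic miRNA gene and of its host cannot be told apart with certainty in gene-level values, so the value of MIR548AO is uncertain.

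SFRP2, a close relative of SFRP1 (ENSG00000145423.4, GRCh38 chromosome 4, 153780592 to 153789120, minus strand), was the one of the 8 tested genes whose difference between the labelled genotypes passed. At day 0 it was at 114 and 120 TPM (WT1, WT2) and 119 and 112 TPM (S13, S23), with overlapping groups. At day 4 it was at 425 and 446 TPM (WT1, WT2) and 291 and 311 TPM (S13, S23). Both S13 and S23 lay below wild type by more than the spread within either pair (log2 fold change -0.53, SE 0.080, 95% interval -0.72 to -0.35, limma adjusted p = 0.0337). At day 8 the order was turned, with 340 and 349 TPM in wild type and 367 and 420 TPM (S13, S23). That later difference did not pass (0.19, SE 0.080, adjusted p = 0.293), although the groups did not overlap.

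The turn itself passed: the SFRP2 difference changed by 0.72 from day 4 to day 8 (SE 0.11, limma adjusted p = 0.0328). In wild type SFRP2 rose by 1.89 to day 4 (SE 0.080, adjusted p = 3.29e-07) and then fell, with a log2 fold change of -0.34 (SE 0.080, adjusted p = 0.0302). Under the SOX21-/- label it rose by 1.37 (adjusted p = 1.74e-06) and went on rising to day 8, by 0.38 (SE 0.080, adjusted p = 0.0100). The call at day 4 was lost when any of 10 of the 12 libraries was left out (-0.58 to -0.48, adjusted p = 0.0554 to 0.179) and was kept without S13 or S23 at day 8. The call of the turn was likewise lost in 10 of 12 cases (0.62 to 0.75, adjusted p = 0.0527 to 0.117) and kept without S23 at day 4 or S13 at day 8.

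Of the SFRP2 steps, the wild-type fall was lost without any of WT1 and WT2 at day 4 or day 8 (limma adjusted p = 0.0905 to 0.149). The later rise under the SOX21-/- label was lost without S13 at day 4 or S23 at day 8 (adjusted p = 0.0586 and 0.0526), and with scaling by the median of gene ratios (0.14, adjusted p = 0.307). Scaled by the median of gene ratios, SFRP2 rose by 0.45 to day 4 in wild type, and its value under the SOX21-/- label was 0.14, which did not pass (adjusted p = 0.233). Under that scaling the day 4 difference was -0.36 (adjusted p = 0.127). At day 4 the sum of 6 neuron markers was also lower in S13 and S23, at 70.5 and 102 TPM against 170 and 184 TPM, with 0 of 6 called, and its part in the SFRP2 level was not tested.

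SFRP1 and SFRP2 did not keep 1 ratio. At day 0 the level of SFRP1 was 0.897 and 0.882 times that of SFRP2 in wild type and 0.968 and 0.918 times in S13 and S23. By day 4 it was 1.25 and 1.31 times in wild type and 1.64 and 2.12 times in S13 and S23, and at day 8 0.808 and 0.801 times against 1.12 and 1.24 times. SFRP1 was thus the lower of the pair at day 8 in wild type and the higher in S13 and S23, and the groups did not overlap at any of the 3 days. A ratio within a library does not move with a scaling by a single factor per library, though quantile normalization can change it. The ratio was picked with its values in view, and with 2 libraries against 2 an exact two-sided permutation test cannot give a p below 0.333.

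**Figure D4:**
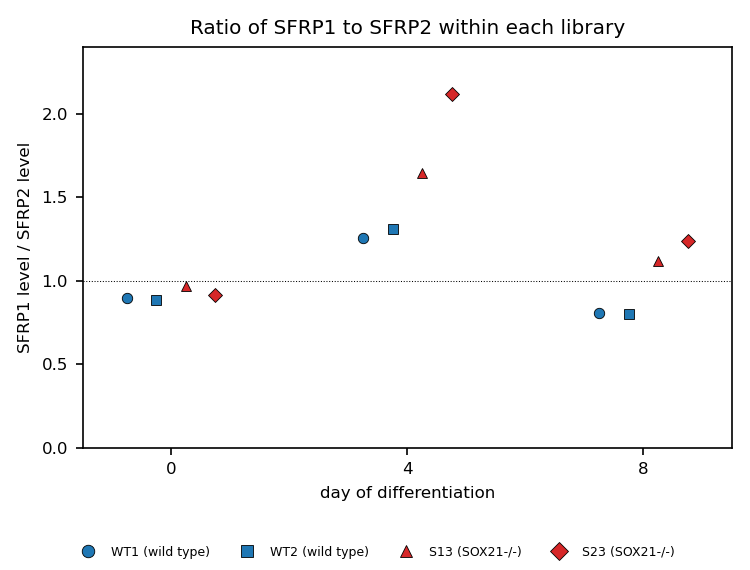
Ratio of the SFRP1 level to the SFRP2 level within each library (vertical axis, no unit) by day of differentiation, with 1 point per library and a dotted line at equal levels. The S13 and S23 points lie above both wild-type points at each day, and at day 8 they lie above the line (1.12 and 1.24) while wild type lies below it (0.808 and 0.801).

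FRZB, also called SFRP3 (ENSG00000162998.4, chromosome 2, 182833275 to 182867162, minus strand), went from hardly detected to a high level. It was at 0.761 and 0.833 TPM (WT1, WT2) and 1.12 and 0.978 TPM (S13, S23) at day 0. At day 4 it was at 110 and 117 TPM (WT1, WT2) and 91.8 and 62.2 TPM (S13, S23). The wild-type libraries were the higher ones at day 4, and S23 the lowest. FRZB reached 1 TPM in 1 library of day 0 and in every library of days 4 and 8. It thus entered the test through the days where it was high, and its higher later level is a description. The rise to day 4 passed with log2 fold changes of 5.995 in wild type (SE 0.17, limma adjusted p = 4.48e-08) and 5.22 under the SOX21-/- label (adjusted p = 1.04e-07), among the largest of the 8 genes. The difference between the labelled genotypes at day 4 was -0.58 (SE 0.17, 95% interval -0.97 to -0.19, adjusted p = 0.148) and did not pass, at a size close to that of SFRP2.

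At day 8 FRZB was at 60.6 and 66.6 TPM (WT1, WT2) and 54.0 and 60.4 TPM (S13, S23), close together. The step from day 4 passed in wild type, as a fall (-0.83, SE 0.17, limma adjusted p = 0.0180) and not under the SOX21-/- label (-0.40, SE 0.17, adjusted p = 0.122). The wild-type fall was lost without any 1 of the 4 wild-type libraries of days 4 and 8 (-0.90 to -0.76, adjusted p = 0.0595 to 0.1005). Without S23 at day 4 the step under the SOX21-/- label passed (-0.68, adjusted p = 0.0134), as it did with scaling by the median of gene ratios (-0.63, adjusted p = 0.0423). The change between the steps was 0.43 (SE 0.24, 95% interval -0.12 to 0.98, adjusted p = 0.421) and did not pass.

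SFRP5 (ENSG00000120057.4, chromosome 10, 97766751 to 97771952, minus strand), an antagonist known from anterior endoderm and fat tissue, went the other way at a low level. It was at 1.05 and 1.56 TPM (WT1, WT2) and 1.29 and 1.40 TPM (S13, S23) at day 0, and at 0.0829 to 0.141 TPM in all libraries at day 4. SFRP5 reached 1 TPM in the 4 day 0 libraries alone, so that it entered the test through the day from which the step is counted, and its lower later level is a description. The step passed in both (-1.01 in wild type, SE 0.20, limma adjusted p = 0.00187, and -1.08 under the SOX21-/- label, adjusted p = 0.00139). At day 8 it was listed at 0 in 3 libraries and at 0.0927 TPM in WT1, so that the 3 SFRP genes with a CCAAT box in their promoters include 2 that rose and 1 that fell. Pluripotency markers fell over the same step, with 5 of 6 lower and 1 higher in each genotype.

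The Dickkopf genes had little in common with each other. DKK1 (ENSG00000107984.9, chromosome 10, 52314296 to 52318042, plus strand) blocks the LRP co-receptors. It was at most 0.363 TPM in every library at day 0 and at 0.0581 and 0.120 TPM (WT1, WT2) at day 4, against 1.22 TPM in S13 and 24.4 TPM in S23. At day 8 it was listed at 0 in both wild-type libraries and was at 0.313 and 0.0602 TPM (S13, S23). A clear level was thus seen in a single library, S23 at day 4.

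DKK1 reached 1 TPM in S13 and S23 at day 4 alone and so entered the test through the group where it was high, which makes its higher value there a description. That step under the SOX21-/- label passed (log2 fold change 2.66, SE 0.89, limma adjusted p = 0.0295), and was lost without S13 or S23 at day 0 (adjusted p = 0.0779 and 0.121). It was lost too with no filter, with either other scaling and with only the days compared (adjusted p = 0.0574 to 0.0812). Without S23 at day 4 its size was 0.90, and without S13 at day 4 it was 4.42. The difference from wild type at day 4 was 2.79 (SE 0.89, 95% interval 0.74 to 4.83, adjusted p = 0.174) and did not pass. It ran from 1.03 without S23 at day 4 to 4.55 without S13 at day 4, where it passed (adjusted p = 0.00351). The later value under the SOX21-/- label was -2.67 (adjusted p = 0.0592) and did not pass either. It passed without S13 at day 4 (-4.43, adjusted p = 0.000564), with a pseudocount of 0.1 (-4.47, adjusted p = 0.0410) and on nuclear protein-coding genes (-2.79, adjusted p = 0.0237). Without S13 at day 4 the change of the genotype difference passed too, from day 0 to day 4 (4.45, adjusted p = 0.00667) and from day 4 to day 8 (-4.31, adjusted p = 0.00997).

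Some WNT targets stood high in that S23 library too. SP5, a direct target of WNT signalling, was at 28.0 TPM in S23 and 9.31 TPM in S13 at day 4 against 0.0766 and 0.176 TPM in wild type. AXIN2, another target, was at 35.3 and 23.8 TPM against 14.4 and 13.04 TPM. Neither difference passed (limma adjusted p = 0.0737 and 0.188). WNT8B, the ligand named in the title of the study, was at 94.3 TPM in S23 and 26.7 TPM in S13 against 2.78 and 3.19 TPM in wild type (log2 fold change 3.69, SE 0.52, adjusted p = 0.0289). Among 12 canonical WNT targets tested, 4 had the order S23, S13, wild type at day 4 (AXIN2, LEF1, SP5 and TNFRSF19), as DKK1 and WNT8B did. Another 3 (APCDD1, CCND1 and TCF7) were higher in both S13 and S23 than in wild type, with S13 above S23, and 2 (LGR5 and NKD2) were lower in both. The remaining 3 overlapped. How often such orders occurred among all genes tested was not counted, so these counts say nothing particular of the targets. By limma 1 of the 12 was called at day 4 (TNFRSF19), where 0.775% of all genes passed. PRKG1-AS1 overlaps DKK1 on the opposite strand and was at most 1.08 TPM in every library, 0.414 TPM in S23 at day 4.

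DKK2 (ENSG00000155011.8, chromosome 4, 106921802 to 107283806, minus strand) was hardly detected, with 0.662 TPM in WT2 at day 8 as its highest value and 0.202 TPM or less in the other libraries. DKK3 (ENSG00000050165.17, chromosome 11, 11963106 to 12009769, minus strand), a divergent member whose effect on WNT signalling depends on the cell, was present throughout. It was at 14.8 and 12.6 TPM (WT1, WT2) and 14.6 and 12.9 TPM (S13, S23) at day 0. Its day 4 level was 17.8 and 21.04 TPM (WT1, WT2) and 9.82 and 14.9 TPM (S13, S23). Its day 8 level was 18.2 and 19.4 TPM (WT1, WT2) and 26.0 and 22.1 TPM (S13, S23). S13 and S23 thus lay below wild type at day 4 and above it at day 8, with no overlap at either day.

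Neither DKK3 difference passed, at -0.63 at day 4 (SE 0.19, limma adjusted p = 0.163) and 0.34 at day 8 (SE 0.19, adjusted p = 0.458). The change between them, 0.97, did not pass either (SE 0.27, 95% interval 0.34 to 1.60, adjusted p = 0.133). The rise under the SOX21-/- label from day 4 to day 8 did pass (0.93, SE 0.19, adjusted p = 0.0102), and was lost without S13 at day 8 (0.82, adjusted p = 0.0584). In wild type that step was -0.041 (adjusted p = 0.962). The wild-type value from day 0 to day 4 was 0.47 (adjusted p = 0.0591) and changed sign with the scaling, so no direction is given for it. Under the SOX21-/- label the value was -0.16 (adjusted p = 0.49997), and -1.33 with scaling by the median of gene ratios (adjusted p = 0.000327). The wild-type value passed without S13 or S23 at day 4 (adjusted p = 0.0209 and 0.0211).

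SHISA2 (ENSG00000180730.4, chromosome 13, 26044597 to 26051031, minus strand), which keeps frizzled and FGF receptors from the cell surface, also rose steeply. It was at 1.47 and 1.20 TPM (WT1, WT2) and 1.93 and 1.18 TPM (S13, S23) at day 0. By day 4 it was at 89.7 and 92.7 TPM (WT1, WT2) and 98.6 and 241 TPM (S13, S23). S23 was far above its partner, and S13 stood just above wild type. The rise passed in both genotypes, by 5.30 in wild type (SE 0.39, limma adjusted p = 5.37e-06) and by 5.94 under the SOX21-/- label (adjusted p = 3.32e-06).

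At day 8 SHISA2 was at 52.1 and 54.3 TPM (WT1, WT2) and 15.9 and 27.4 TPM (S13, S23), now both below wild type. The difference was -1.31 (SE 0.39, 95% interval -2.20 to -0.41) and did not pass (limma adjusted p = 0.131), nor did that at day 4, 0.75 (SE 0.39, adjusted p = 0.381). The day 8 difference passed without S13 or S23 at day 4 (adjusted p = 0.0411 and 0.0415), libraries that enter it through the shared estimate of the spread. From day 4 to day 8 the fall under the SOX21-/- label passed (-2.83, SE 0.39, adjusted p = 0.00184) and the wild-type step did not (-0.77, SE 0.39, adjusted p = 0.250). The change between the steps was -2.06 (SE 0.55, adjusted p = 0.122) and passed without S13 at day 4 (-2.70, adjusted p = 0.0477).

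SHISA3 (ENSG00000178343.4, chromosome 4, 42397839 to 42402487, plus strand) was present before differentiation, at 1.63 and 1.09 TPM (WT1, WT2) and 1.64 and 1.76 TPM (S13, S23). At day 4 it was listed at 0 in WT1 and WT2 and was at 0.193 and 0.155 TPM (S13, S23), and at day 8 it was at 0.109 TPM or less in every library. SHISA3 reached 1 TPM in the 4 day 0 libraries alone and so entered the test through them, and its lower day 4 value is a description. That step passed in wild type (limma adjusted p = 0.000586) and under the SOX21-/- label (-1.20, SE 0.20, adjusted p = 0.000747). With a pseudocount of 0.1 the SHISA3 values were -3.84 and -2.72, and those of SFRP5 -2.53 and -2.81, all passing. SHISA2 and SHISA3 were thus at similar low levels at day 0 and far apart at day 4.

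CER1 (ENSG00000147869.4, chromosome 9, 14719724 to 14722717, minus strand) stayed under 1 TPM in every library. It was at 0.0937 to 0.189 TPM at day 0. By day 4 it was at 0.0825 and 0.0840 TPM (WT1, WT2) and 0.445 and 0.484 TPM (S13, S23), while at day 8 WT1 and WT2 had 0.413 and 0.688 TPM and S13 and S23 were listed at 0. The order of the labelled genotypes was thus opposite at the 2 days. When genes of every level were tested, the day 8 difference passed (limma adjusted p = 0.0218) and the day 4 difference did not (0.43, SE 0.096, adjusted p = 0.127), at levels under 1 TPM.

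GSC, a gene of anterior endoderm and mesendoderm where CER1 is also made, had the same order. It was at 0.791 and 0.642 TPM (WT1, WT2) and 5.37 and 4.30 TPM (S13, S23) at day 4 (log2 fold change 1.76, SE 0.30, limma adjusted p = 0.0493), and at 4.97 and 5.51 TPM against 2.30 and 0.697 TPM at day 8 (-1.40, adjusted p = 0.0509). Of the 8 endoderm markers GSC was the 1 that could be tested, and SOX17 was listed at 0 in all 12 libraries. The summed level of the 8 was 0.982 and 0.726 TPM against 5.75 and 4.61 TPM at day 4 and 5.17 and 6.62 TPM against 4.22 and 0.763 TPM at day 8, mostly GSC itself. Without GSC the other 7 summed to 0.191 and 0.0848 TPM against 0.375 and 0.308 TPM at day 4 and to 0.209 and 1.12 TPM against 1.92 and 0.0656 TPM at day 8. The part of these markers in the CER1 values was not tested.

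Other genes of the pathway were counted at day 8, when 2.79% of all genes tested passed, from lists by role. Of 19 other WNT antagonists 14 were tested, with 1 higher and 1 lower in S13 and S23. TPBG, a membrane protein known to inhibit WNT signalling, had levels of 173 and 127 TPM (WT1, WT2) and 606 and 577 TPM (S13, S23), below SFRP1 in the former pair and above it in the latter. Its log2 fold change was 1.99 (SE 0.14, limma adjusted p = 0.000431). SFRP4, the remaining SFRP gene, was lower at a level near detection, at 1.47 and 2.71 TPM in wild type, listed at 0 in S13 and at 0.465 TPM in S23 (adjusted p = 0.0462). It reached 1 TPM in the wild-type libraries of day 8 alone and so entered the test through the group where it was high. Its lower value in S13 and S23, the 1 lower call of this list, is therefore a description. Of 6 other SHISA genes 4 were tested and 1 was lower, SHISA6, at 9.11 and 10.97 TPM in wild type and 2.54 and 3.68 TPM in the S13 and S23 pair (-1.44, adjusted p = 0.0116). SHISA6 is known for its binding to AMPA receptors.

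Among the partners of the antagonists, 15 of 16 frizzled and co-receptor genes were tested at day 8, with 1 higher (ROR1) and 2 lower (FZD5 and FZD8). The share of all genes that passed at day 8, 2.79%, stands beside each count given here. Neither co-receptor bound by DKK1 passed: the log2 fold change of LRP5 was -0.53 (limma adjusted p = 0.463) and that of LRP6 0.52 (adjusted p = 0.128). Of 19 WNT ligand genes 9 were tested and 2 were higher, WNT8B and WNT2B, with 0 lower. The sum of the ligand genes was 479 and 500.4 TPM in S23 and S13 against 183 and 173 TPM in wild type, below the summed level of the 10 antagonists in each of these libraries. Most of the sum in S23 and S13 was WNT8B, at 303 and 322 TPM, against 1.60 and 0.317 TPM (WT1, WT2). The higher sum is thus largely that of 1 gene and not of the ligands as a class. Of 16 canonical WNT targets 12 were tested, with 3 higher (TNFRSF19, BAMBI and CCND1) and 0 lower. Of 13 NODAL and BMP antagonists 9 were tested and 1 was higher, FST, which binds activin (2.41, SE 0.30, adjusted p = 0.00617).

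**Figure D5:**
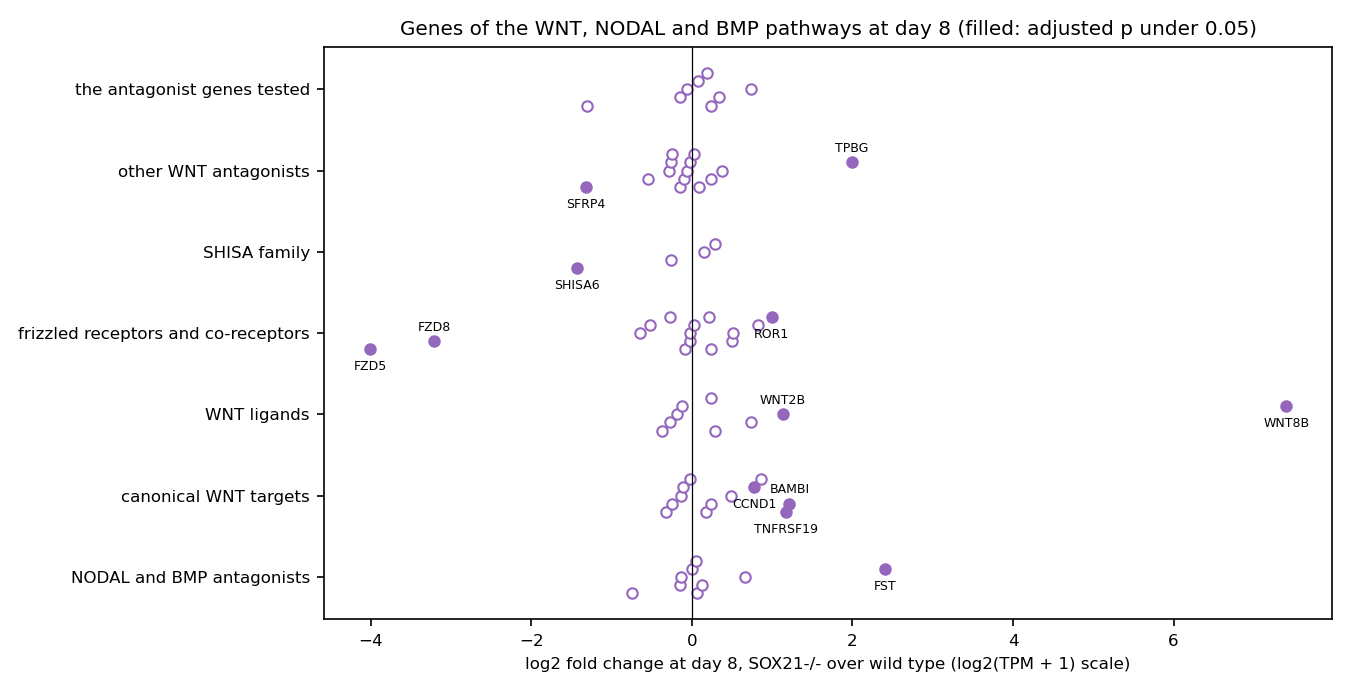
Log2 fold change of the libraries labelled SOX21-/- over wild type at day 8 on the log2(TPM + 1) scale (horizontal axis) for every tested gene of 7 lists (vertical axis), with filled, named points for an adjusted p under 0.05. The 8 antagonist genes in the top line are all open points, from SHISA2 at -1.31 to SFRP1 at 0.73, while WNT8B lies at 7.40 and FZD5 at -4.01.

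At day 4, when 0.775% of all genes tested passed, the same lists held these calls. Of the 14 other antagonists tested 0 were called by limma, DRAXIN being at -0.68 (SE 0.15, adjusted p = 0.0831) and TPBG at 0.64 (SE 0.14, adjusted p = 0.0863). PTK7, a WNT co-receptor, was lower (-0.50, SE 0.076, adjusted p = 0.0359), WNT8B was the 1 ligand called, and TNFRSF19 the 1 target called (1.91, SE 0.25, adjusted p = 0.0215).

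The genes whose course over the 12 libraries was most like that of an antagonist were found by Pearson correlation of log2(TPM + 1), given as a description, since the libraries share the large day 0 to day 4 difference. The nearest to SFRP1 was ZNF146 (r = 0.994), to SFRP2 CTNND1 (r = 0.995), to FRZB MAPK10 (r = 0.997) and to SHISA2 DOLK (r = 0.991). SFRP5 was followed most closely by GYG2P1 and ESRG (r = 0.994 each), ESRG being a transcript known from pluripotent stem cells, and SHISA3 by RP11-108K3.5 (r = 0.991). DKK3 had a less close match in BMPR2 (r = 0.939). For DKK1 the nearest were RNU7-160P (r = 0.983), PPP1R17 (r = 0.842) and SP5 (r = 0.829), and both DKK1 and SP5 were highest in the S23 library of day 4. RNU7-160P was at 34.7 TPM there, at 2.87 TPM in S13 and listed at 0 in the other libraries.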

How the data were processed

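The authors deposited one TPM value per gene and library. The submitters' processing notes name CASAVA 1.7, Salmon 0.8.2 and hg38. No annotation release or strand setting is named (not given in the sources used here). The table held 0 columns of other series. Since TPM keeps no read counts, sequencing depth and its precision are unknown. The labels name several sequencers without assigning them to libraries, so no batch could be separated.

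Genes with at least 1 TPM in at least 2 of 12 libraries (24248) were fitted by limma 3.58.1 (R 4.3.3) after a pseudocount of 1 and a log2 transform. The model had 6 group means, a trend on mean level, 6 residual and 2.29 prior degrees of freedom, and two-sided tests. Benjamini-Hochberg adjustment ran over all genes tested within each of 10 comparisons, at a threshold of 0.05. Fold changes on this scale understate the change of genes with low values. The 10 genes and all lists were chosen with earlier results of these data known. Named genes were the 10, SOX21, and list genes called between genotypes or paired by role with a member. For each member the 3 genes of most similar course whose highest group mean was at least 5 TPM were added. Outside this rule the WNT targets AXIN2, LEF1, APCDD1, TCF7, LGR5 and NKD2 were named. So were the markers LIN28A, COL1A1, COL1A2, LUM and SOX17. DRAXIN, TPBG and SP5 at day 4, PRKG1-AS1, MIR548AO and the ratio of SFRP1 to SFRP2 were described after their values were seen. A value listed at exactly 0 can be a failed estimate.

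Alternatives were another pseudocount, other filters, 2 other scalings, other moderation, only the days compared, the line label as a block, a 2-fold threshold and each library left out. A fit on nuclear protein-coding genes was added after seeing the data. Positions came from GENCODE v29 (GRCh38), matched with version for 55050 of 58219 identifiers and for all 10 genes, and promoters from RefSeq (GRCh38.p14).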

Additional observations from a re-analysis of the deposited data

Results flagged for a closer look

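The SFRP2 difference between the labelled genotypes changed from day 4 to day 8 by 0.72 on the log2 scale (SE 0.11, limma adjusted p = 0.0328), as tested by the interaction contrast. S13 and S23 were below both wild-type libraries at day 4 (291 and 311 TPM against 425 and 446 TPM). They were above both at day 8 (367 and 420 TPM against 340 and 349 TPM), where the difference did not pass (0.19, SE 0.080, limma adjusted p = 0.293). The call of the change was lost under many of the alternatives given below, among them median-of-ratios scaling and a fixed replicate block.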

How the results depend on the processing

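Over 24 alternatives, 12 of the 21 calls kept their side of the threshold in every one that could be run, and all 21 kept their direction. The 12 include the day 0 to day 4 steps of SFRP5, SHISA3 and FRZB in both genotypes. These genes entered the test through the days where they were high, so their kept calls do not measure stability. Among 80 pairs of gene and comparison, 38 had an unadjusted p of 0.1 or more, and 21 of these changed sign under some alternative. DKK3 from day 0 to day 4 in wild type became -0.89 with median-of-ratios scaling (limma adjusted p = 0.00296), -0.49 with quantile normalization (adjusted p = 0.0351) and -0.13 on nuclear protein-coding genes (adjusted p = 0.572). The median of all genes over that step was 0.91 as deposited, 0.031, 0.26 and 0.55 under these. SFRP2 at day 4 and its turn to day 8 were each lost in 15 of 24 alternatives (adjusted p = 0.0244 to 0.241 and 0.0246 to 0.117). The count at day 4 went from 1 to 0 with median-of-ratios scaling, without the trend, with only the days compared, with a fixed replicate block and with a 2-fold threshold, and so did the count for the change from day 4 to day 8. At day 8 the count went from 0 to 1 with a filter at 5 TPM, with quantile normalization and on nuclear protein-coding genes, SFRP1 in each case. The wild-type count from day 4 to day 8 went from 3 to 1 with only the days compared and with a 2-fold threshold. Under the SOX21-/- label the count from day 0 to day 4 went from 7 to 4 with a filter at 5 TPM, where SFRP5, SHISA3 and DKK1 were not tested, and from day 4 to day 8 from 3 to 1 with a 2-fold threshold. With each library left out in turn the counts ran from 0 to 1 at day 4, from 0 to 2 at day 8, from 0 to 3 for wild type from day 4 to day 8, from 0 to 1 for the change of the genotype difference from day 0 to day 4, and from 0 to 2 for that from day 4 to day 8. Where a group was left with 1 library, that library was assumed to vary like the other groups.

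The other changes of sign were in values that passed neither as reported nor with the sign changed, and their cause was not tested. Between the labelled genotypes with quantile normalization, SFRP5 became -0.011 at day 0 and 0.12 at day 4, and SFRP1 -0.042 at day 4. DKK3 at day 0 became -0.028 with median-of-ratios scaling and -0.0069 on nuclear protein-coding genes. For the change of the genotype difference from day 0 to day 4, SHISA3 became -0.041 and SFRP1 0.14 with median-of-ratios scaling, and SFRP5 0.13 with quantile normalization. From day 0 to day 8 SHISA3 became 0.21 with a pseudocount of 0.1 and DKK1 -0.066 with quantile normalization. With each library left out in turn the day 0 difference ran from -0.061 to 0.020 for SFRP2, -0.016 to 0.14 for SFRP1, -0.10 to 0.30 for DKK1, -0.13 to 0.19 for SFRP5, -0.11 to 0.11 for DKK3 and -0.096 to 0.33 for SHISA2. That of SFRP1 at day 4 ran from -0.23 to 0.24 and that of SFRP5 at day 8 from -0.13 to 0. In wild type DKK1 ran from -0.085 to 0.040 between day 0 and day 4, and SHISA3 from 0 to 0.074 and DKK3 from -0.16 to 0.075 between day 4 and day 8. Under the SOX21-/- label DKK3 ran from -0.44 to 0.12 between day 0 and day 4. The change of the genotype difference ran from -0.14 to 0.19 for SHISA3, -0.29 to 0.17 for SFRP1, -0.23 to 0.084 for SFRP5 and -0.0050 to 1.28 for SHISA2 from day 0 to day 4, from -0.086 to 0.042 for SFRP5 from day 4 to day 8, and from -0.29 to 0.038 for SHISA3, -0.064 to 0.34 for DKK1 and -0.25 to 0.062 for SFRP5 from day 0 to day 8.

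The line labels repeat across days. Over all genes tested, differences between the 2 libraries of a genotype correlated at -0.0060 to 0.071 between days. The highest value was that of S13 and S23 between days 4 and 8. A correlation over all genes cannot show whether single genes followed the line label. With the line label as a fixed replicate block SFRP2 at day 4 had an adjusted p of 0.0909 and its turn 0.0880. As a random effect its correlation was -0.0090 and both calls were kept. The number of reads behind values under 1 TPM is unknown, which limits DKK2, SHISA3, SFRP5 and CER1.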
